A study of Mus musculus with 12 samples.

Results

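Rn7sk, Rpph1, Rn7s1 and Rn7s2 encode 3 kinds of abundant noncoding RNA, namely 7SK RNA, the RNA subunit of RNase P, and 7SL RNA, the RNA of the signal recognition particle (SRP). These 4 genes were chosen by name from the 20792 genes listed for the series, with their CPM (read counts scaled to library size) in the same libraries already known, because they were among the most abundant and Rpph1 was among the genes with the largest spread. Their levels and differences are therefore given as a description, without a test. RNA was sequenced from hematopoietic stem and progenitor cells (HSPCs), sorted from bone marrow as lineage-negative, CD127-negative cells that carry c-kit and Sca-1, of WT mice. Per the study's methods, mice were 4 to 6 weeks old when the diets began, and high salt was given in both chow and drinking water. The ND group had normal diet and the HSD group high salt diet for 8 weeks, both without brain hemorrhage. The ND ICH and HSD ICH groups had the same diets and then an intracerebral injection of blood, a model of intracerebral hemorrhage (ICH), and were sampled on day 7. All mice were put back on normal diet after ICH, so the HSD ICH group was exposed to high salt only before the injury. Comparing ICH with no ICH on HSD, and the interaction of diet and ICH, therefore also includes the return to normal diet. That return cannot be told apart from the hemorrhage there. No sham-operated group is listed, so the operation cannot be told apart from it either. Each group had 3 libraries. A library of the ND or HSD group came from the pooled cells of 3 mice, and the number for the ICH groups is not given in the sources used here. Those of the ND and HSD groups were called biological replicates, and the labels say no more of the others, so p-values measure the spread between these libraries, which may in part be technical.

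All 3 RNAs are made by RNA polymerase III and work inside RNA-protein particles. 7SK RNA is capped and held by Mepce, stabilized by Larp7, and with Hexim1 or Hexim2 it keeps the kinase P-TEFb (Cdk9 with Ccnt1 or Ccnt2) inactive, so that release of P-TEFb lets paused RNA polymerase II move on. RNase P removes the 5′ leader of precursor tRNAs, and shares most of its proteins with RNase MRP, whose RNA is Rmrp. SRP binds the signal sequence of proteins as they leave the ribosome and brings them to its receptor and the Sec61 translocon of the endoplasmic reticulum.

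The libraries held 8678304 to 27491973 reads in listed genes, the fewest in HSD replicate 3 and the most in HSD ICH replicate 3. All 12 HSPC markers were above 1 CPM on average in every group, with a summed level of 2026 to 2629 CPM, so the labelled cell type had its markers. Libraries of uninjured mice missed 1393 to 1755 of the listed genes entirely and those after ICH only 2 to 29, and both comparisons of ICH with no ICH include this difference. The 12 macrophage markers together reached 797 CPM in HSD replicate 2 and 454 CPM in ND replicate 1, and 72.4 to 179 CPM elsewhere. Erythroid markers were highest in the same libraries, at 272 CPM in HSD replicate 2 and 332 CPM in ND replicate 1. Elsewhere they summed to 28.6 to 132 CPM, the lowest being HSD ICH replicate 3. Neutrophil markers (9 of 10 listed) summed to 91.9 to 148 CPM without ICH, 169 to 307 CPM in ND ICH and 363 to 1397 CPM in HSD ICH, the highest being HSD ICH replicate 3. Whether these cells or features took part in the differences below was not tested. In such bulk libraries, fewer cells of a type and less RNA per cell cannot be told apart.

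The genes lie on 3 chromosomes of GRCm38 (mm10, GENCODE M21). Rn7sk is at chr9:78175303-78175633 on the minus strand, Rpph1 at chr14:50807449-50807767 on the minus strand, Rn7s1 at chr12:69159295-69159594 on the plus strand and Rn7s2 at chr12:69361182-69361481 on the minus strand. Their transcripts have 331, 319, 300 and 300 bases, each without introns. The first 100 bases of 7SK RNA are shown because its 5′ part holds the GATC motifs known for Hexim binding. All 3 GATC motifs of the transcript, in capitals, fall in it.
Rn7sk: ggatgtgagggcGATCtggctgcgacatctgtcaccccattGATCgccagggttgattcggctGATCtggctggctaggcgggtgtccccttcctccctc

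The transcripts of Rn7s1 and Rn7s2 were identical over all 300 bases, so a read from inside them cannot be given to either gene, and the counting rule for such reads is not given in the sources used here. A run of 173 bases of these transcripts is also in Rn7s6, an SRP RNA gene of 291 bases at chr6:69516339-69516629 on the plus strand.

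Most of Rpph1 lies inside another gene. An exon of Ccnb1ip1 in its untranslated region covers 233 of the 319 bases of Rpph1 on the same strand, and only the 2 ends of Rpph1, shown here, are outside it. Ccnb1ip1 is not among the listed genes, so it could not be analysed here. How reads in the overlap were counted is not given in the sources used here.
Rpph1, bases 1 to 35: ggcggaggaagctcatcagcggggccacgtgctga
Rpph1, bases 269 to 319: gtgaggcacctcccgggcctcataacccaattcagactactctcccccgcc

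On its other side Rpph1 shares a start region with Parp2, a poly(ADP-ribose) polymerase gene on the plus strand that begins 74 bases away. An octamer, the motif bound by POU factors and typical of such small RNA promoters, lies 93 bases before Rpph1 and within an exon of Parp2, at chr14:50807850-50807877 in the window shown (plus strand, octamer in capitals). ATTTGCAT on either strand was present in 570 of 32851 RefSeq promoter windows of 300 bases, which is 1.74%, and the match is a description of these letters only.
Octamer beside Rpph1: acagcgcgtaATTTGCATgcgctctacc

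Together the 4 genes took 5.67% to 10.4% of the reads in listed genes, with a median of 8.00% over the 12 libraries. By mean CPM they ranked 4 (Rn7s2), 5 (Rn7s1), 7 (Rpph1) and 8 (Rn7sk) among all listed genes. The order of Rn7s2 and Rn7s1 has no meaning, since their reads cannot be told apart, and each holds only a part of the 7SL reads. Per kilobase of transcript, the scale on which genes can be compared, Rn7s2 had a mean level of 73020 CPM per kb, Rn7s1 72631, Rpph1 49886 and Rn7sk 38302, against a median of 3.26 over the 20511 genes with a known length. Taken singly, the ranges of the 4 genes overlapped. The sum of Rn7s1 and Rn7s2, which stands for 7SL RNA, had 34860 to 54839 CPM over the 12 libraries. Rpph1 had 8464 to 31633 CPM and Rn7sk 8035 to 24338 CPM, below that range although their transcripts are longer. In HSD replicate 2, Rpph1 (97253 CPM per kb) was above Rn7s1 (89042) and Rn7s2 (93755) taken singly. In ND ICH replicate 2, Rpph1 (99163 CPM per kb) and Rn7sk (73529) were above Rn7s1 (62150) and Rn7s2 (62696) taken singly.

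**Figure D1:**
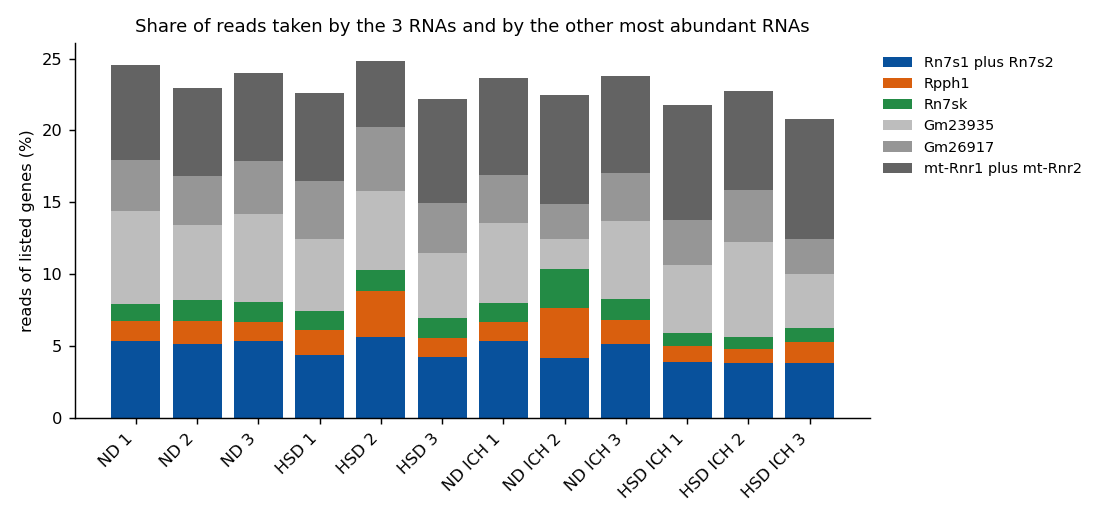
Share of the reads in listed genes (y axis, %) in each of the 12 libraries (x axis) for 7SL RNA (Rn7s1 plus Rn7s2), Rpph1 and Rn7sk in color, and for the abundant RNAs Gm23935, Gm26917 and the mitochondrial ribosomal RNAs in grey. The colored part is smallest in the 3 HSD ICH libraries, at 5.67% to 6.28%, and largest in HSD 2 and ND ICH 2, at 10.3% and 10.4%.

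The 4 genes together had the lowest share in the HSD ICH group. The mean share was 8.09% ± 0.134 (SD, n = 3) in ND, 8.25% ± 1.81 in HSD, 8.90% ± 1.30 in ND ICH and 5.96% ± 0.306 in HSD ICH. The HSD ICH libraries had 5.94%, 5.67% and 6.28%, and each of the other 9 libraries had at least 6.97%. A low share in HSD ICH was not particular to these genes. Malat1, an abundant nuclear long noncoding RNA, had 0.528%, 0.48% and 0.464% in HSD ICH and at least 0.538% in each of the other 9 libraries. The mitochondrial ribosomal RNAs, by contrast, took 7.76% ± 0.753 of reads in HSD ICH, the highest mean of the 4 groups, and Gm23935, annotated as a miRNA, took 5.02% ± 1.44.

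7SK RNA was lowest in HSD ICH. Rn7sk had 11987, 13439 and 12492 CPM in the ND libraries and 12063, 14200 and 12844 CPM in the HSD libraries. It had 11841, 24338 and 13270 CPM in ND ICH and 8288, 8035 and 9337 CPM in HSD ICH. All 3 HSD ICH libraries were below all 9 others, and ND ICH replicate 2 was far above the rest. After ICH, the mean was 8553 ± 690 CPM with prior HSD and 16483 ± 6840 CPM with ND (SD, n = 3), a difference of −0.87 between the means of log2(CPM + 0.5). Without ND ICH replicate 2 the ND ICH mean was 12556 CPM and the difference −0.55, and the groups still did not overlap.

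The other differences of Rn7sk were mostly smaller. On HSD, ICH libraries were lower than libraries without ICH by a log2 difference of −0.61, without overlap. Between HSD and ND without ICH it was 0.04, inside a within-group SD of 0.10. ICH against no ICH on ND gave 0.31, which became −0.01 without ND ICH replicate 2.

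Other listed genes hold 7SK-like sequence, and they change this picture for 1 library. Of the 282 runs of 50 bases in Rn7sk, 192 are also in Gm24447 (chr15:93234363-93234700, plus strand) and 186 in Gm26315 (chr2:7076094-7076414, minus strand), both annotated as miscellaneous RNA genes. These genes were singled out after their values were seen. Gm24447 had 3279 to 6117 CPM in the 9 libraries outside HSD ICH, and 2681, 2402 and 5165 CPM in HSD ICH. Gm26315 had 621 to 1259 CPM outside HSD ICH, and 874, 782 and 2372 CPM in HSD ICH. HSD ICH replicate 3 was thus low in Rn7sk and high in both related genes, which held 44.7% of the summed 7SK reads there and 21.7% to 31.1% in the other 11 libraries.

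Summed over Rn7sk, Gm24447 and Gm26315, the HSD ICH libraries had 11842, 11220 and 16873 CPM, and the other 9 libraries 16382 to 31076 CPM. HSD ICH replicates 1 and 2 stayed below all others in the sum, while replicate 3 was inside the range of the other groups. The difference after ICH was −0.70 for the sum against −0.87 for Rn7sk alone, and that of ICH on HSD −0.47 against −0.61. Whether reads of 1 RNA were divided between these genes was not tested.

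**Figure D2:**
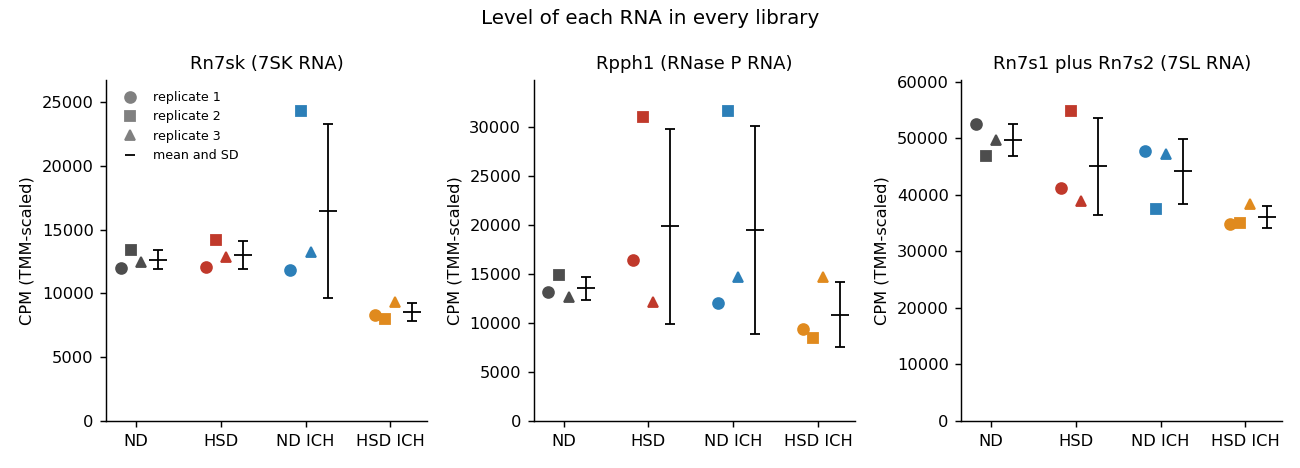
CPM of Rn7sk, Rpph1 and Rn7s1 plus Rn7s2 (y axes, linear from 0) in the 4 groups (x axes), with 1 point per library, its shape giving the replicate number, and a bar for the mean with its SD (n = 3). Rn7sk in the HSD ICH libraries is at 8035 to 9337 CPM, below every other library, and Rpph1 stands out in HSD replicate 2 and ND ICH replicate 2.

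RNase P RNA varied most between libraries of a group. Rpph1 had 13142, 14839 and 12589 CPM in ND and 16368, 31024 and 12116 CPM in HSD. After ICH it had 12029, 31633 and 14711 CPM on ND and 9386, 8464 and 14664 CPM with prior HSD. HSD replicate 2 and ND ICH replicate 2 stood far above the other 10 libraries, which had 8464 to 16368 CPM, and all 4 comparisons overlapped. The SD was 50.01% of the mean in HSD and 54.6% in ND ICH, against 8.67% in ND and 30.9% in HSD ICH.

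The differences of Rpph1 turned on these libraries. HSD against ND without ICH gave a log2 difference of 0.44, and 0.06 without HSD replicate 2. After ICH the diets differed by −0.75, and by −0.34 without ND ICH replicate 2. ICH against no ICH gave 0.40 on ND and −0.80 on HSD, which became −0.02 and −0.42 without ND ICH replicate 2 and HSD replicate 2, respectively. HSD replicate 2 was also the library with the most macrophage marker reads, at 797 CPM, but ND ICH replicate 2 had 100 CPM of them. The part of these cells in the Rpph1 level was not tested.

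The 2 libraries high in Rpph1 differed in the other RNAs. In HSD replicate 2 the ratio of Rpph1 to Rn7sk was 2.18 and Rn7sk was 14200 CPM, the highest value after ND ICH replicate 2 but close to the 13439 CPM of ND replicate 2. In ND ICH replicate 2 that ratio was 1.30, since Rn7sk was high too, while the ratio of 7SL RNA to Rn7sk was 1.54 against 3.03 to 4.37 in the other 11 libraries. Outside HSD replicate 2, the ratio of Rpph1 to Rn7sk was 0.943 to 1.57.

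Within groups, the SD of 7SL RNA was 5.498% to 19.1% of the mean, against 5.83% to 41.5% for Rn7sk, and in HSD Rn7sk was the more even at 8.29%. Since Rn7s1 and Rn7s2 are identical in sequence, they were summed. Rn7s1 took 48.7% to 51.3% of the sum in each library, and the 95% Wilson interval, which covers counting error only, included 50% in 3 of 12 libraries. The sum was 52429, 46835 and 49590 CPM in ND and 41207, 54839 and 38944 CPM in HSD. It was 47688, 37454 and 47157 CPM in ND ICH and 34860, 34987 and 38356 CPM in HSD ICH. The HSD ICH libraries had the 2 lowest values, and ND ICH replicate 2 was the lowest library outside that group.

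Group means of the sum were 49618 ± 2797 CPM in ND, 44997 ± 8599 in HSD, 44099 ± 5761 in ND ICH and 36068 ± 1983 in HSD ICH (SD, n = 3). The log2 difference between diets was −0.16 without ICH and −0.28 after ICH, and that of ICH was −0.18 on ND and −0.30 on HSD. As a share of listed reads, the HSD ICH libraries had 3.94%, 3.85% and 3.86% and all others at least 4.17%, so that on this scale HSD ICH did not overlap with any other group. In CPM it overlapped with ND ICH through ND ICH replicate 2. With Rn7s6, which had 804 to 2254 CPM in HSD ICH and 439 to 1362 CPM in the other libraries, HSD ICH also overlapped with HSD, and HSD ICH replicate 3 again had the most reads of the related gene.

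Counts of members without overlap can be read against those over all tested genes. After ICH, 1 of the 4 genes (Rn7sk) was lower in CPM with prior HSD without overlap, against 13.3% of all genes. Of ICH against no ICH, 2 of 4 (Rn7sk and Rn7s1) were lower on HSD, against 14.5%, and 1 of 4 (Rn7s2) on ND, against 14.3%. The separate outcomes of Rn7s1 and Rn7s2 have no meaning, since their reads cannot be told apart. Their sum was lower without overlap on HSD and overlapped on ND. Between HSD and ND without ICH none was, against 5.75%. As a share of listed reads, Rn7sk, Rn7s1 and Rn7s2 were lower without overlap with prior HSD after ICH, and for ICH on HSD. On that scale all genes were not counted. The members' levels chose them, so nothing is drawn from these counts.

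Across the 12 libraries, Rpph1 and Rn7sk had the more similar patterns, with a Pearson's r of 0.82 on log2(CPM + 0.5) and a Spearman's rho of 0.80, and 0.82 for deviations from the group means. Rn7s1 and Rn7s2 had an r of 0.99. The r of Rn7sk with Rn7s1 was 0.29, and −0.44 for deviations from the group means. These are descriptions over 12 libraries that share their scaling, and ND ICH replicate 2 has a large part in the pattern of Rn7sk.

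The genes with a pattern most like that of a member were taken from the 9627 genes with a mean of at least 10 CPM. For Rn7sk they were the snoRNA gene Gm24336 (r = 0.95), Ncapd2, a condensin subunit (0.95), and Gm28967 (0.92). For Rpph1 they were Card19 (0.88), Gm9970 (0.88) and A130051J06Rik (0.87). Beside each other, Rn7s1 had Zfp444 (0.88) and Zfp263 (0.87), and Rn7s2 had Cd82 (0.90) and Sh3bp5 (0.87).

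Listed genes next to the members did not pass the test in any comparison. Ccnb1ip1 and other nearby genes that are not listed could not be tested. The test was limma on log2(CPM + 0.5), run over every gene that had 10 or more reads in 3 or more of the libraries compared, with an adjusted p (Benjamini-Hochberg) under 0.05. Parp2, which shares the start region of Rpph1, had group means of 32.8 to 35.6 CPM while Rpph1 ranged from 10838 to 19836. Next to Rn7s1, the ribosomal protein gene Rps29 had means of 198 to 274 CPM and Lrr1 4.12 to 6.03 CPM, and next to Rn7s2, the ribosome quality control gene Nemf had 77.7 to 85.3 CPM. Near Rn7sk, C920006O11Rik, a long noncoding RNA that starts 281 bases away on the other strand, had 2.37 to 3.50 CPM, Gsta4, a glutathione S-transferase, 1.85 to 2.13 CPM, and Cilk1, a kinase gene, 23.2 to 26.6 CPM.

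Other small RNAs of this kind were tested, since their levels were not used to choose the members. They too were named with earlier results of these data known, so their p-values may not be free of selection. Vaultrc5, the RNA of the vault particle, also made by RNA polymerase III, fell after ICH on both diets. It had 43.0, 41.6 and 39.0 CPM in ND and 24.96, 25.3 and 30.8 CPM in HSD. After ICH it had 19.2, 11.9 and 18.4 CPM on ND and 10.04, 7.17 and 7.77 CPM with prior HSD, so the 4 groups did not overlap. ICH against no ICH gave a log2 difference of −1.32 ± 0.163 (SE, adjusted p = 0.000195 by limma) on ND and −1.65 ± 0.163 (adjusted p = 0.00199) on HSD, and it was lower in 3 of 3 libraries each time.

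Between diets, Vaultrc5 did not pass the test. HSD against ND gave −0.60 ± 0.101 without ICH (adjusted p = 0.0658 by limma) and −0.93 ± 0.209 after ICH (adjusted p = 0.241). By edgeR's quasi-likelihood test the adjusted p without ICH was 0.0493, and over all alternatives it ranged from 0.000239 to 0.787. After ICH the adjusted p ranged from 0.0238 to 0.496, and 2 of 14 alternatives, DESeq2 and the fit of all 12 libraries, passed.

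Rmrp, the RNA of RNase MRP, did not follow Rpph1 although both particles share proteins. It had 1265, 1071 and 1236 CPM in ND, 876, 700 and 841 CPM in HSD, 1160, 713 and 1204 CPM in ND ICH and 847, 962 and 806 CPM in HSD ICH. The HSD libraries were all below the ND libraries, with a log2 difference of −0.57 ± 0.105 that missed the threshold (adjusted p = 0.0934 by limma, 8.33e-07 to 0.849 over the alternatives). Where Rpph1 was highest, in HSD replicate 2 and ND ICH replicate 2, Rmrp had its 2 lowest values, and the ratio of Rpph1 to Rmrp was 44.3 and 44.4 against 8.80 to 18.7 elsewhere. Terc, the telomerase RNA, had group means of 7.29 to 9.70 CPM and passed no test.

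**Figure D3:**
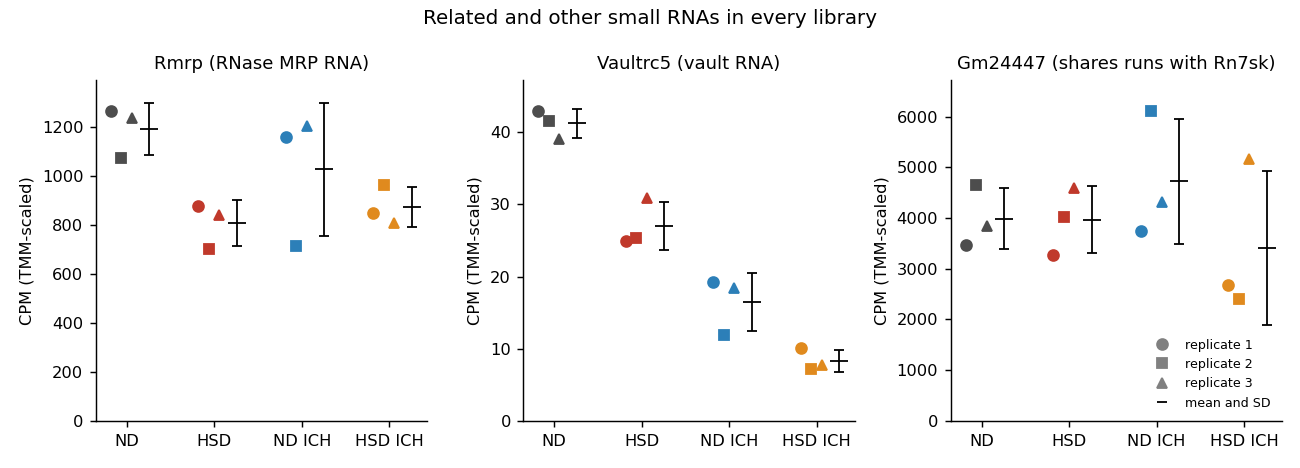
CPM of Rmrp, Vaultrc5 and Gm24447 (y axes, linear from 0) in the 4 groups (x axes), with 1 point per library, its shape giving the replicate number, and a bar for the mean with its SD (n = 3). Vaultrc5 goes from 39.0 to 43.0 CPM in ND to 7.17 to 10.04 CPM in HSD ICH without overlap of the groups. Gm24447 is highest in ND ICH replicate 2, at 6117 CPM, and HSD ICH replicate 3, at 5165 CPM, is far above the other HSD ICH libraries.

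Genes for the proteins that work with these RNAs were compared in 8 lists of 93 genes. Without ICH, none of the 89 tested genes passed the adjusted threshold between HSD and ND by limma, edgeR or DESeq2, against 0.0774% of all genes by limma. At an unadjusted p under 0.05, 2 were higher, Pop1 of RNase P (0.22) and Maf1, a repressor of polymerase III (0.22), and 0 lower, against 3.65% and 3.28% of all genes. After ICH, none of 90 passed by any of the 3 tools, against 0% of all genes by limma. At an unadjusted p under 0.05, 8 were higher with prior HSD, against 5.42% of all genes, and these were 3 genes of the SRP list and 5 of the translocon list. The difference between the 2 diet effects also gave no call among 90 genes by the 3 tools and 0% among all genes by limma, and the unadjusted test gave 1 in each direction, against 2.22% (higher) and 6.13% (lower).

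Hexim1, Mepce and Ccnt1, which work with 7SK RNA, fell after ICH on ND. Of the 90 genes tested in that comparison, 5 fell and 1 rose, against 3.23% and 13.5% of all genes. Those shares include genes at low counts. With a minimum of 10 CPM in at least 3 libraries, 48 of 9696 genes rose and 68 fell, and no gene of the lists passed. By the main filter, 3 of the 5 that fell were among the 7 genes of the 7SK list. This list had a median log2 difference of −0.26, against 0.01 over all genes, and 6 of its 7 genes had lower means, while Larp7 was at 0.05. Hexim1, the inhibitor of P-TEFb, had 29.5, 26.2 and 32.4 CPM in ND and 19.5, 18.6 and 23.6 CPM in ND ICH, without overlap, a log2 difference of −0.51 ± 0.122 (SE, adjusted p = 0.0161 by limma). Mepce, the enzyme that caps 7SK RNA, had 32.2, 31.2 and 31.8 CPM in ND and 25.7, 20.6 and 24.96 CPM in ND ICH, a difference of −0.42 ± 0.104 (adjusted p = 0.0199 by limma). Ccnt1, the cyclin of P-TEFb, went from 74.6 ± 2.69 to 62.2 ± 1.63 CPM (SD, n = 3; −0.26, adjusted p = 0.0357 by limma). Cdk9, its kinase, had 47.5 ± 2.82 and 39.0 ± 4.86 CPM and did not pass (adjusted p = 0.102 by limma), nor did Ccnt2, Hexim2 or Larp7. With a minimum of 10 CPM in at least 3 libraries, the adjusted p by limma was 0.0808 for Hexim1, 0.0849 for Mepce and 0.107 for Ccnt1. The call of Hexim1 was lost without ND replicate 3, ND ICH replicate 1 or ND ICH replicate 2 (adjusted p up to 0.114), and those of Mepce and Ccnt1 without any 1 of the 6 libraries (up to 0.0991 and 0.192 by limma).

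Genes of other lists changed with ICH on ND as well. Ell, an elongation factor that works with P-TEFb, fell by 0.37 on the log2 scale (adjusted p = 0.0495 by limma), and Gtf3c5, a subunit of the polymerase III factor TFIIIC, fell by 0.38 (adjusted p = 0.0254 by limma). Eaf2, which binds Ell, rose by 0.76 (adjusted p = 0.0402 by limma), at a low level of 0.763 to 1.58 CPM in the group means. Over the alternatives the adjusted p ran from 0.0436 to 0.196 for Ell, from 0.0119 to 0.143 for Gtf3c5 and from 0.0056 to 0.217 for Eaf2. Ell lost its call without any 1 library, Gtf3c5 without any but ND replicate 2, and Eaf2 without any but ND replicate 1. Neither the RNase P, SRP, translocon nor polymerase III subunit list had a call there.

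With prior HSD, fewer 7SK partners passed after ICH. Mepce fell, with 31.5, 36.9 and 38.7 CPM in HSD and 24.9, 26.9 and 22.8 CPM in HSD ICH (−0.51 ± 0.121, adjusted p = 0.0378 by limma). It was the only gene of the 90 that fell, against 1.26% of all genes, and its call was lost without any 1 of the 6 libraries (adjusted p of 0.07 to 0.17 by limma). With a minimum of 10 CPM in at least 3 libraries, 27 of 9729 genes fell, and Mepce did not pass (adjusted p = 0.103 by limma). All 7 genes of the 7SK list had lower means, with a median of −0.17 against −0.01 over all genes. Hexim1 had 27.2 ± 1.89 and 23.5 ± 2.69 CPM there, which overlapped (adjusted p = 0.352 by limma). A difference between the effects of ICH on the 2 diets was not found for Hexim1 (0.29, adjusted p = 0.639 for the interaction by limma), which does not show that they were alike.

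Translocon genes had higher means in HSD ICH. Sec61b, a subunit of the Sec61 channel, was the only gene of the 90 that rose with ICH on HSD, against 5.31% of all genes. It had 29.8, 28.5 and 32.6 CPM in HSD and 39.9, 42.3 and 57.3 CPM in HSD ICH (0.59 ± 0.145, adjusted p = 0.0435 by limma). With a minimum of 10 CPM in at least 3 libraries, 17 of 9729 genes rose, and Sec61b did not pass (adjusted p = 0.114 by limma). The median of the 11 translocon genes was 0.39, and 10 of them had higher means. Without HSD ICH replicate 3 the median was 0.18 for the translocon list and 0.03 for the SRP list, against 0.23 for the SRP list with it. At an unadjusted p under 0.05, 6 of the 11 translocon and 2 of the 9 tested SRP genes were higher, against 11.8% of all genes. Srp72 (0.38, adjusted p = 0.141) and Srp68 (0.29, adjusted p = 0.205 by limma), which bind 7SL RNA together, did not pass. HSD ICH replicate 3, the library with the most neutrophil marker reads, had the highest Sec61b value, and without it the difference was 0.43 (adjusted p = 0.0645 by limma). The call was lost without any 1 of the other 5 libraries too, with an adjusted p of up to 0.16.

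After ICH, the diets showed a like order for these lists without a call. The median log2 difference was 0.41 for the 11 translocon genes and 0.33 for the 9 SRP genes, against −0.03 over all genes, while 7SL RNA itself was at −0.28. Without HSD ICH replicate 3, the library with the most neutrophil marker reads (1397 CPM), these medians were 0.17 and 0.18, and the part of those cells was not tested. Srp68 (0.42, adjusted p = 0.26) and Sec61b (0.53, adjusted p = 0.271 by limma) had the smallest p of their lists. The RNase P list had a median of 0.05, and Pop4 was its gene with the smallest p (0.27, adjusted p = 0.365 by limma). No RNase P protein gene passed in any comparison, and the medians of that list were 0.04 to 0.15 in the 4 comparisons.

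**Figure D4:**
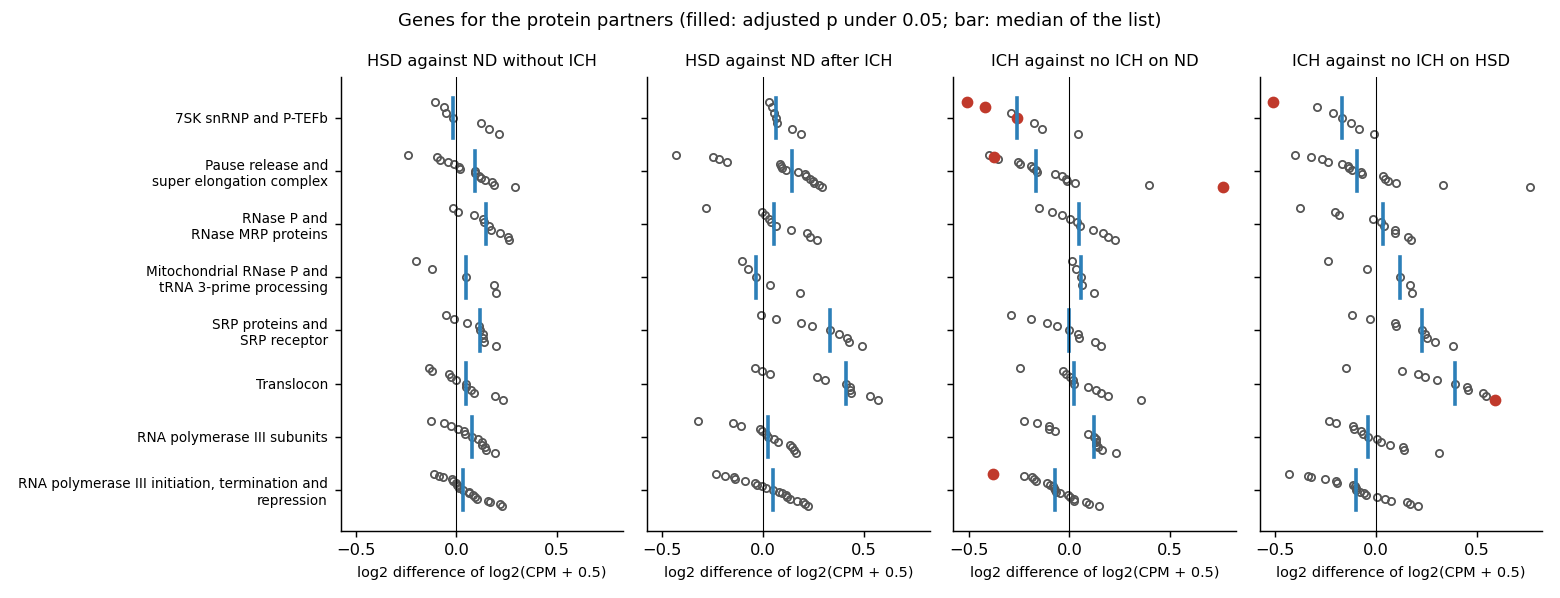
Difference in log2(CPM + 0.5) (x axes) of each tested partner gene (points) by list (y axis) in the 4 comparisons (panels), with filled points for an adjusted p under 0.05 by limma and a bar at the median of the list. For ICH on ND, filled points are Hexim1, Mepce and Ccnt1 at −0.51, −0.42 and −0.26, Eaf2 at 0.76, Ell at −0.37 and Gtf3c5 at −0.38, and for ICH on HSD they are Mepce at −0.51 and Sec61b at 0.59.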

How the data were processed

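The values deposited by the authors are CPM per gene and library. Per the study and the submitters' processing notes, Rsubread was the aligner, mm10 the genome, featureCounts the counter and edgeR 3.24.3 the tool for TMM scaling. Libraries were made from total RNA with a stranded kit that does not depend on poly(A) tails, and the strand and multi-mapping settings of counting are not given in the sources used here. Whole reads were recovered from CPM, with 100% of values whole to within 0.01 of a read. In HSD replicate 2 the CPM of 1 read is near 0.1, so this is less certain there. The members and lists were chosen with earlier results of these data known. Members were described by CPM, by share of the listed reads and by differences of mean log2(CPM + 0.5). Partner genes, neighbours and other small RNAs were tested with limma 3.58.1 (trend) in R 4.3.3, in fits of the 6 libraries compared or of all 12 for the interaction, over every gene that had 10 or more reads in 3 or more libraries. The limma test between groups was checked on simulated counts with larger changes than those of the partner genes called here. That check therefore does not cover these calls, the interaction or the other tools. All genes of the lists were counted. Named were the core partners that passed and up to 3 genes of a list with the smallest p in a comparison. Listed genes within 10000 bases of a member and the 3 genes most like each member were named too. Sequences came from GENCODE M21 transcripts and RefSeq promoters, both of GRCm38. Alternatives were edgeR 4.0.16 and DESeq2 1.42.0 on recovered reads, other scalings, denominators, pseudocounts, filters and fits, and leaving out libraries. A sum with the related genes was added after seeing the data. Same-numbered libraries were not treated as pairs. The 7SL sequence is not reported here.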

Additional observations from a re-analysis of the deposited data

How the results depend on the processing

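Under share of listed reads, recomputed TMM, DESeq2 size factors, a denominator without the most abundant RNAs, other pseudocounts, a replicate block and leaving out libraries, the members' differences moved by less than the spread between replicates. That spread was taken with every library in, those far from their group included, so staying inside it does not show that a difference held. The sign changed in 2 of 15 alternatives for Rn7sk between diets without ICH. For ICH on ND it changed in 1 of 15 for Rn7sk and 1 of 14 for Rpph1. Rn7sk for ICH on HSD moved to −0.47 once Gm24447 and Gm26315 were added. Leaving out 1 library gave −1.07 to −0.55 for Rn7sk and −0.40 to −0.22 for 7SL RNA between diets after ICH, −0.67 to −0.54 and −0.40 to −0.15 for ICH on HSD, and 0.06 to 0.74 for Rpph1 between diets without ICH.

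Counts of partner genes depended on the processing. For ICH on ND, with 1 higher and 5 lower, edgeR and DESeq2 gave 0 and 3, a pseudocount of 0.1 gave 0 higher, leaving out ND replicate 1 with HSD replicate 2 gave 1 lower, and leaving out 1 library gave 0 to 1 higher and 0 to 2 lower. For ICH on HSD, with 1 and 1, DESeq2 gave 2 higher, all 12 libraries in 1 fit gave 2 lower, and leaving out 1 library, or ND replicate 1 with HSD replicate 2, gave 0 and 0. A minimum of 10 CPM gave 0 in both directions on both diets. Over all genes, it tested 9696 genes on ND and called 48 higher and 68 lower, and edgeR called 2561 and 519 of 19387. At an unadjusted p under 0.05 the counts were 2 higher between diets without ICH, 8 higher after ICH, 3 and 13 for ICH on ND, 10 and 6 on HSD, and 1 and 1 for the interaction. Vaultrc5 kept its calls after ICH in all 15 alternatives on each diet.

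Same-numbered libraries had correlations of −0.191 to 0.0943 after group means were removed, so no pairing by number was seen over the tested genes together. With so few libraries per group, this cannot exclude a pairing that touches only some genes. A replicate block gave 0 in place of 1 gene lower for ICH on HSD, where Mepce lost its call (adjusted p = 0.0621 by limma), and Ccnt1 lost its call for ICH on ND (0.0794). It changed no other call of a named gene.

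Precision was limited by 3 libraries per group, and reads could not be divided between genes with the same sequence.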
